A study of Mus musculus with 22 samples.

Results

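Alternatively activated macrophages and tissue resident macrophages were followed in mouse dorsal root ganglia (DRG) through 10 genes: Mgl2, Clec10a, Mrc1, Cd209f, Cd163, Lyve1, Folr2, Retnla, Il10 and Arg1. They are 10 of 55487 genes in each deposited count table, and each symbol matched 1 Ensembl identifier. The genes were chosen by name and by measured values, because Mgl2 and Retnla were lower with imiquimod (IMQ) while other macrophage genes were higher. The difference between IMQ and vehicle is therefore given for them as a description, without a p-value, and a count of calls is given only beside that of all genes.

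Periostin (POSTN, made from the gene Postn) is secreted into the extracellular matrix, and the study compared sensory ganglia with and without it in a psoriasis model. The ganglia, T10 to L5, came from mice of 2 genotypes, knockout (KO) for Postn and wild type (WT), each given either IMQ, a TLR7 agonist that inflames skin, or vehicle over 5 days. There were 2 KO IMQ, 3 KO vehicle, 2 WT IMQ and 3 WT vehicle ganglion libraries. Another 12 libraries came from DRG neuron cultures kept 72 h with recombinant POSTN (rPOSTN) or without it, 3 each of KO rPOSTN, KO control, WT rPOSTN and WT control. The labels do not say how the knockout was made, whether it is limited to a cell type, or the strain, age or sex of the mice.

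Macrophages live in the ganglion around neurons and vessels, and monocytes from blood can join them. Signals through the interleukin 4 receptor and the factor STAT6 turn on a set of genes in mouse macrophages that is called alternative activation, with Retnla, Mgl2, Mrc1 and Arg1 as classic members. Cd163, Lyve1, Folr2 and Cd209f mark long-lived macrophages that sit beside vessels and in connective tissue. The members are not exclusive to macrophages: Mgl2 also marks a class of dendritic cells, Lyve1 and Mrc1 lymphatic endothelium, Retnla adipose tissue and Arg1 neutrophils.

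The upstream sequences of Mgl2 and Retnla are shown because these were the members that stood lower in IMQ ganglia. They come from RefSeq on build GRCm38.p6, 5′ to 3′ on the plus strand, and each ends before the first annotated exon. The stretch for Mgl2 is chr11:70130107-70130328 (222 bases) and that for Retnla is chr16:48842359-48842550 (192 bases). Capitals mark TTC and GAA set 4 bases apart, with those 4 bases, which is the spacing that STAT6 is known to bind. The motif reads the same on both strands.
Mgl2: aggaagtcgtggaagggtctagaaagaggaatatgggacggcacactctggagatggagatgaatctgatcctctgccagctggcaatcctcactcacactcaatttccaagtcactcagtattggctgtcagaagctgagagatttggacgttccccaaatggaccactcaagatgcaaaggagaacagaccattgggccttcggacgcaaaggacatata
Retnla: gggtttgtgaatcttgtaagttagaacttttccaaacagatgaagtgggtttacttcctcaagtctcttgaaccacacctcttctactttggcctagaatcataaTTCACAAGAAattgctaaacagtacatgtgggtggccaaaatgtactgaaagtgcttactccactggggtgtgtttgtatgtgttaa

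The match in Retnla begins 145 bases before the RefSeq start. Neither that motif nor TTCNNNGAA, the form with a spacing of 3 bases that other STAT factors bind, was present in the 250 bases upstream of Mgl2. Among the 6 members with a RefSeq promoter entry (Mrc1, Cd163, Folr2, Cd209f, Mgl2 and Retnla), Retnla was the only one with the 4-base spacing in that window, and TTCNNNGAA was found in none. Of 32851 RefSeq promoters, 5.85% held the motif with 4 bases and 7.02% held TTCNNNGAA in the same 250 bases. A match describes the letters and does not show binding.

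Total counts per library ran from 16666489 to 24118303. Postn was lower in KO than in WT ganglia, at 5.9 against 46.5 CPM (reads of a gene scaled to library size) with IMQ (log2 −2.98 ± 0.26, edgeR adjusted p = 0.0118) and at 4.11 against 22.9 CPM with vehicle (−2.48 ± 0.22, edgeR adjusted p = 0.011). In KO cultures it stood at 71.8 to 456 CPM, against 678 to 988 CPM in WT cultures, with KO culture 3 the highest of its genotype in both arms. WT IMQ 2 was the only ganglion library without Xist (0.176 CPM, against 196 to 236 CPM in the other 9). It held 139 CPM of Y-linked reads, against 0 in WT IMQ 1, so these 2 are not repeats of 1 sample. KO vehicle 1 had the most of the globin gene Hbb-bs, at 294 CPM. The other vehicle ganglia had 25 to 88 CPM and the IMQ ganglia 11.5 to 29.2 CPM. WT cultures 1 and 2 held 175 to 187 CPM of Y-linked reads in both arms. WT culture 3 held 0, with 1180 and 1250 CPM of Xist. The KO cultures held both Xist and Y-linked reads. Whether replicates are otherwise separate mice or cultures is not stated. The p-values therefore measure only the spread between these samples, which may be partly technical.

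**Figure D1:**
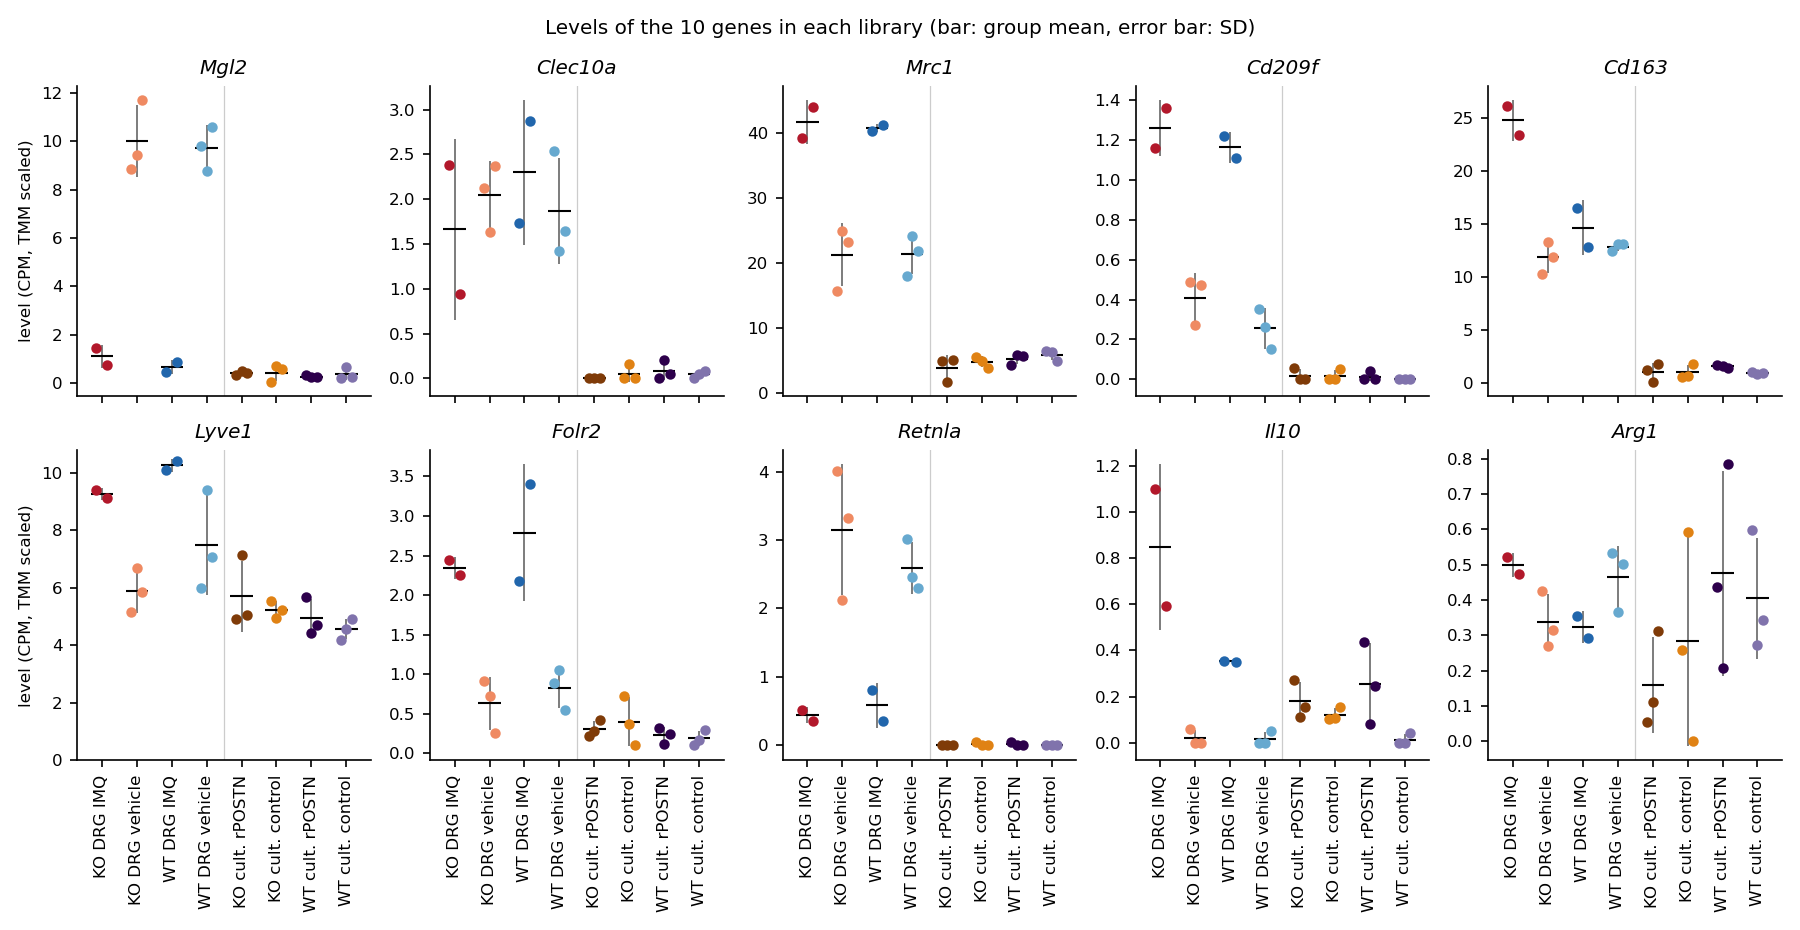
Each panel shows 1 gene. Points are libraries (TMM-scaled CPM, linear axis), short bars are group means and error bars are SD (n = 2 for IMQ ganglia, 3 for the other groups). A vertical line parts the ganglia (DRG) from the cultures (cult.), which were normalised apart. Mgl2 and Retnla stand near the bottom in the 4 IMQ libraries, while Mrc1, Cd209f and Folr2 stand above their vehicle libraries there.

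The 4 lectin receptors went different ways with IMQ. Mgl2 encodes CD301b, a lectin that binds galactose-type sugars. It had 1.45 and 0.77 CPM in KO IMQ ganglia, against 8.87, 9.45 and 11.7 CPM in KO vehicle ganglia. The WT ganglia had 0.457 and 0.879 CPM with IMQ, against 9.82, 8.76 and 10.6 CPM with vehicle. In both genotypes every IMQ library was below every vehicle library, and the vehicle ganglia of the genotypes overlapped. The log2 difference between IMQ and vehicle was −3.16 ± 0.30 in KO and −3.87 ± 0.32 in WT ganglia (± SE). In counts, Mgl2 had 38 reads over the KO IMQ libraries against 578 over KO vehicle, and 24 over WT IMQ against 544 over WT vehicle.

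Clec10a encodes CD301a, the paralog of Mgl2, and lies next to it on the chromosome with no coding gene in between. It had 2.38 and 0.947 CPM in KO IMQ ganglia, against 2.13, 1.63 and 2.37 CPM in KO vehicle ganglia. In WT ganglia it had 1.73 and 2.87 CPM with IMQ, against 2.54, 1.42 and 1.65 CPM with vehicle. Its reads were few, 57 over KO IMQ against 116 over KO vehicle, and 83 over WT IMQ against 103 over WT vehicle. The groups overlapped in both genotypes, and the log2 difference was −0.29 ± 0.42 in KO and 0.30 ± 0.40 in WT. The sign in KO depended on 1 library, at 0.22 without KO IMQ 2, and so did that in WT, at −0.11 without WT IMQ 2. The genes share 1.44% of the exonic 150-base windows of Mgl2, the read length, so few reads could be assigned to either gene.

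Mrc1 encodes CD206, the macrophage mannose receptor. It had 39.2 and 44.0 CPM in KO IMQ ganglia, against 15.7, 24.8 and 23.2 CPM in KO vehicle ganglia. The WT ganglia had 40.2 and 41.1 CPM with IMQ, against 18.0, 24.1 and 21.8 CPM with vehicle. All 4 IMQ libraries were above all 6 vehicle libraries, and the log2 difference was 0.97 ± 0.19 in KO and 0.93 ± 0.19 in WT. Mrc1 also contains the miRNA gene Mir511 on its own strand.

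Cd209f is a mouse relative of the DC-SIGN lectin that is found in vessel-associated macrophages. It had 1.16 and 1.36 CPM in KO IMQ ganglia, against 0.486, 0.271 and 0.474 CPM in KO vehicle ganglia. In WT ganglia it had 1.22 and 1.11 CPM with IMQ, against 0.355, 0.262 and 0.15 CPM with vehicle. The groups did not overlap, with a log2 difference of 1.63 ± 0.36 in KO and 2.18 ± 0.39 in WT. The level is uncertain, since 14.9% of its exonic 150-base windows are identical in its paralog Cd209g.

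The scavenger and transport receptors were level or higher with IMQ. Cd163, the receptor for hemoglobin bound to haptoglobin, had 26.1 and 23.4 CPM in KO IMQ ganglia, against 10.3, 13.3 and 11.9 CPM in KO vehicle ganglia. The WT ganglia had 16.5 and 12.8 CPM with IMQ, against 12.4, 13.1 and 13.1 CPM with vehicle. The KO groups did not overlap and the WT groups did. The log2 difference was 1.06 ± 0.15 in KO and 0.19 ± 0.15 in WT, and the WT value was −0.01 without WT IMQ 1.

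Lyve1, a hyaluronan receptor, had 9.4 and 9.12 CPM in KO IMQ ganglia, against 5.16, 6.69 and 5.85 CPM in KO vehicle ganglia. In WT ganglia it had 10.1 and 10.4 CPM with IMQ, against 5.98, 9.39 and 7.06 CPM with vehicle. The groups did not overlap in either genotype, and the log2 difference was 0.65 ± 0.20 in KO and 0.46 ± 0.19 in WT. Of 6 other lymphatic endothelium genes, which mark another cell with Lyve1, 4 could be tested and none passed. Without Lyve1, the sum of the list was 96.8 to 99.9 CPM in KO IMQ against 73.1 to 98.3 CPM in KO vehicle, and 85.2 to 93.8 CPM in WT IMQ against 88.2 to 104.9 CPM in WT vehicle ganglia. Ccl21a of that list was at 0 reads in every ganglion group, and the part of lymphatic cells in the level of Lyve1 was not tested.

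Folr2, the folate receptor of resident macrophages, had 2.44 and 2.25 CPM in KO IMQ ganglia, against 0.911, 0.724 and 0.263 CPM in KO vehicle ganglia. The WT ganglia had 2.18 and 3.4 CPM with IMQ, against 0.887, 1.05 and 0.551 CPM with vehicle. The IMQ libraries were all higher, by a log2 of 1.89 ± 0.42 in KO and 1.74 ± 0.40 in WT. Folr2 overlaps the antisense gene Gm10602, and the strand setting of the counting is not given in the sources used here, so reads of the pair may be mixed.

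Retnla, Il10 and Arg1 are the secreted factors and the enzyme among the members. Retnla encodes RELMα (Fizz1), a secreted resistin-like protein of mouse macrophages stimulated by interleukin 4. It had 0.522 and 0.355 CPM in KO IMQ ganglia, against 4.01, 2.13 and 3.32 CPM in KO vehicle ganglia. In WT ganglia it had 0.813 and 0.352 CPM with IMQ, against 3.02, 2.46 and 2.3 CPM with vehicle. No IMQ library reached a vehicle library, and the log2 difference was −2.81 ± 0.43 in KO and −2.11 ± 0.40 in WT. Both values rested on few IMQ reads, 15 against 176 with vehicle in KO and 22 against 144 with vehicle in WT. In WT, leaving out WT IMQ 1 gave −2.86, and leaving out WT IMQ 2 gave −1.66. Retnla shares no exonic 50-base window with its relatives Retnlb and Retnlg.

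Il10, the cytokine that restrains inflammation, had 19 and 10 reads in the KO IMQ ganglia, against 1, 0 and 0 in KO vehicle ganglia. The WT ganglia had 7 and 6 reads with IMQ, against 0, 0 and 1 with vehicle. Summed over libraries and corrected for depth, the ratio of IMQ to vehicle was 48.9 in KO (95% exact interval 8.11 to 2000) and 19.8 in WT (2.97 to 841). Intervals from reads cover counting error only. Arg1, which turns arginine into ornithine, had 9 and 8 reads in KO IMQ against 7, 6 and 6 in KO vehicle ganglia, and 7 and 5 in WT IMQ against 9, 7 and 10 in WT vehicle ganglia. It was too low for the test in ganglia.

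The members were lower and higher by turns, and their counts are given here with the background of all genes and with nothing read from them. The edgeR test at an adjusted p below 0.05 could be run for 9 of the 10 members in ganglia. In KO ganglia it called Mrc1, Cd163 and Il10 higher, where 1.09% of 17197 genes were called higher, and Mgl2 and Retnla lower, where 0.0174% were called lower. In WT ganglia it called Cd209f higher (background 1.12%) and Mgl2 and Retnla lower (background 0.18%). Il10 met the filter on low counts only through the KO IMQ libraries, at 19 and 10 reads, and Cd209f only through IMQ libraries. Their calls as higher are therefore no support for a rise. The median log2 difference of the 9 was 0.97 in KO and 0.46 in WT, against a median of all genes of −0.01 in both. The number of members called in KO was 2 without KO vehicle 3, where 110 of all genes were called. In WT it was 1 without WT vehicle 2 (120 of all genes) or WT vehicle 3 (113).

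**Figure D2:**
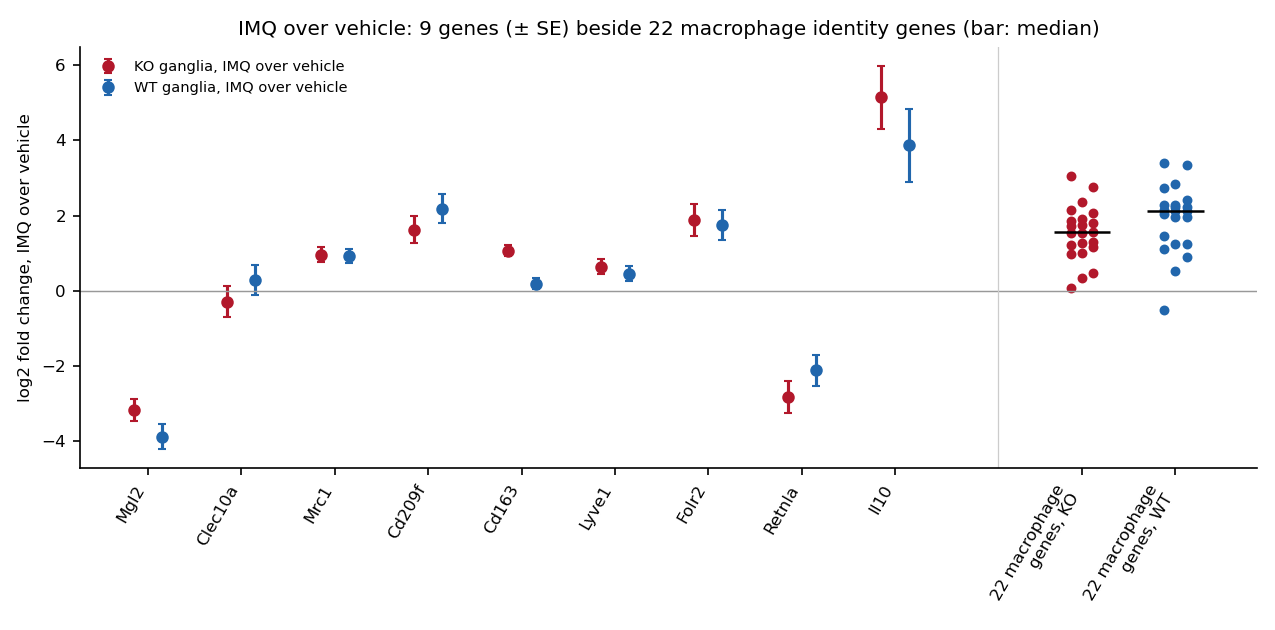
The vertical axis is the log2 fold change of IMQ over vehicle. Points with error bars are members (± SE) in KO (red) and WT (blue) ganglia, and the points on the right are 22 macrophage identity genes with their median as a bar. Mgl2 and Retnla lie below every one of the 22 genes in both genotypes, and Arg1 is not drawn because it was too low to fit.

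The 22 macrophage identity genes give the setting. Their median log2 difference between IMQ and vehicle was 1.55 in KO ganglia, with a range of 0.09 to 3.05, and 2.12 in WT ganglia, with a range of −0.52 to 3.41. This rise was among the values that chose the members, so it is a description. Summed over the list, each library held 788.6 to 878.3 CPM in KO IMQ against 251.2 to 364.4 CPM in KO vehicle, and 995.6 to 1051 CPM in WT IMQ against 260.4 to 318.3 CPM in WT vehicle ganglia. Adgre1, which encodes the surface protein F4/80, stood at 57.9 ± 5.64 CPM in KO IMQ and 6.97 ± 1.28 CPM in KO vehicle ganglia, and at 63.3 ± 1.57 CPM in WT IMQ and 6.24 ± 0.737 CPM in WT vehicle ganglia (SD, n = 2 and 3 in each genotype). In bulk tissue, fewer cells of a type and less RNA per cell cannot be told apart. A member level is also given per Adgre1, which does not part them either.

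Per kilobase of exon, the level of Mgl2 was 0.0291 times that of Adgre1 in KO IMQ ganglia and 2.23 times in KO vehicle ganglia. In WT ganglia the ratio was 0.0162 with IMQ and 2.45 with vehicle. For Retnla the ratio was 0.0406 with IMQ and 2.53 with vehicle in KO, and 0.0501 with IMQ and 2.26 with vehicle in WT. Mrc1, whose own level was higher with IMQ, also stood lower per Adgre1, at 0.369 with IMQ and 1.55 with vehicle in KO and at 0.327 with IMQ and 1.75 with vehicle in WT. The ratio of Cd163 was 0.254 with IMQ and 1.02 with vehicle in KO, and 0.138 with IMQ and 1.23 with vehicle in WT. Lyve1 stood at 0.178 with IMQ and 0.953 with vehicle in KO, and at 0.18 with IMQ and 1.33 with vehicle in WT. For each of these 5 genes the IMQ ratio was the lower one. Clec10a was at 0.0313 with IMQ and 0.332 with vehicle in KO, and at 0.0404 with IMQ and 0.338 with vehicle in WT. Any gene that rose less than Adgre1 has a lower IMQ ratio by construction, so the shared direction is no result about the members. The ratio was not computed for Cd209f, Folr2, Il10 and Arg1. Adgre1 had the highest log2 difference of the 22 genes in KO and the highest but for Itgam in WT, so these ratios are relative to Adgre1 and not to the number of macrophages.

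**Figure D3:**
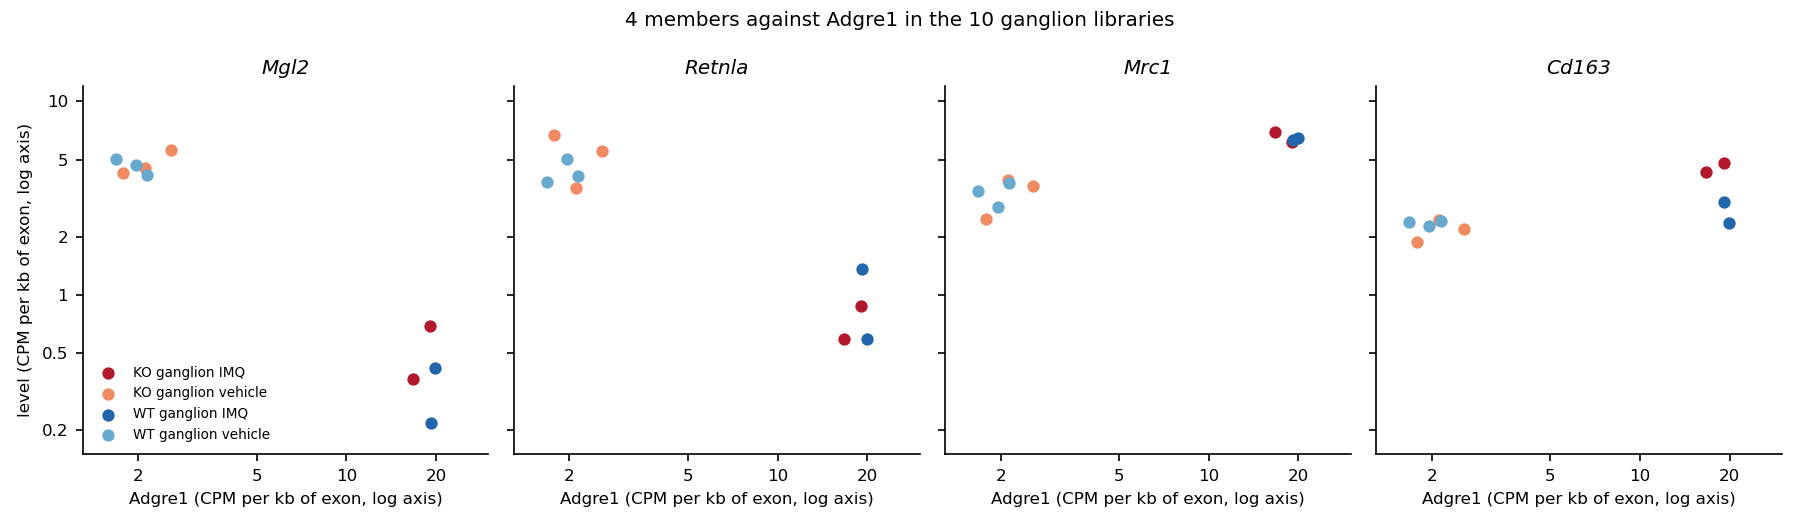
Each point is 1 of 10 ganglion libraries, with Adgre1 on the horizontal axis and a member on the vertical axis, both in CPM per kilobase of exon on log axes. The 4 IMQ libraries lie far right in every panel. They lie low for Mgl2 and Retnla, high for Mrc1, and for Cd163 the KO IMQ libraries are above the WT IMQ libraries.

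Across all 8 groups the levels of the members fell into different orders, and ganglia and cultures come from 3 tables normalised apart, so levels across them are a description. Mgl2 was highest in KO vehicle (10.02 ± 1.52 CPM) and WT vehicle ganglia (9.71 ± 0.907), which overlapped, then came KO IMQ (1.11 ± 0.481) and WT IMQ ganglia (0.668 ± 0.298), which also overlapped, and the 4 culture groups had means of 0.274 to 0.441 CPM and overlapped with one another. All of them but WT rPOSTN also overlapped with WT IMQ ganglia. Retnla was nearly absent from the cultures, with 2 reads in all 12 libraries, and a count of 0, which KO rPOSTN and WT control had, allows up to 0.0541 CPM in KO rPOSTN (3 counts over the group). Mrc1 was lower in cultures, at 3.86 to 5.85 CPM, than in any ganglion group. Lyve1 had culture means of 4.56 to 5.70 CPM, and its KO rPOSTN cultures overlapped with KO vehicle ganglia. Arg1 had culture means of 0.16 to 0.476 CPM and ganglion means of 0.324 to 0.498 CPM, with overlap between all neighbours in its order. Il10 stood at 0.122 to 0.255 CPM in 3 culture groups, above both vehicle ganglion groups, and at 0.0143 CPM in WT control cultures. Group means in cultures were 0.947 to 1.58 CPM for Cd163, 0.191 to 0.401 CPM for Folr2 and at most 0.0852 CPM for Clec10a. Per kilobase of exon, vehicle ganglia held Mgl2 (4.79 in KO and 4.64 in WT CPM per kb) and Retnla (5.26 and 4.33) at levels above those of Mrc1 (3.34 and 3.35), while IMQ ganglia held Mrc1 (6.53 and 6.38) above Mgl2 (0.530 and 0.319) and Retnla (0.732 and 0.972).

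Which genes had the profile most like that of Mgl2 was measured over the 10 ganglion libraries, by the root mean square difference of log2(CPM + 0.5) after centring each gene. Mgl2 and Retnla were both chosen for a lower level with IMQ in these libraries, so their likeness was partly fixed by that choice. Retnla was the gene closest to Mgl2, at 0.718, where a flat profile gave 1.46. After it came Inmt, a methyltransferase gene (0.940), Drp2, a dystrophin-related gene of myelinating Schwann cells (0.979), Magix (1.00) and Etnppl, a phospholyase gene (1.01). For Retnla the closest were Inmt (0.475), the kinase gene Hipk2 (0.519), the alpha globin gene Hba-a2 (0.525), Art5 (0.544) and the glutathione transferase gene Gsta3 (0.547), with a flat profile at 0.891. Mgl2 was in place 648 for Retnla. Clec10a differed from Mgl2 as much as a flat profile did, at 1.46. Inmt averaged 3.42 CPM in KO IMQ against 8.33 CPM in KO vehicle, and 2.76 CPM in WT IMQ against 7.33 CPM in WT vehicle ganglia, while Hba-a2, which encodes a hemoglobin chain of red blood cells, averaged 0.819 CPM in KO IMQ against 5.46 CPM in KO vehicle, and 0.965 CPM in WT IMQ against 3.55 CPM in WT vehicle ganglia. The globin gene Hbb-bs was at 11.5 to 29.2 CPM in IMQ against 25 to 294 CPM in vehicle ganglia. The part of blood content in the levels of Retnla was not tested.

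Other genes of alternative activation and of resident macrophages were read from lists of their own. These lists and those that follow were chosen with earlier results known, so their calls and p-values with IMQ are a description. Of all 17197 genes, 1.09% were called higher and 0.0174% lower in KO ganglia, and 1.12% and 0.18% in WT ganglia. Of 22 other alternative activation genes, 14 could be tested, and none passed with IMQ in KO (median log2 0.19) or in WT ganglia (0.17). Il1rn, the interleukin 1 receptor antagonist gene, was at 1.65 ± 0.49 in KO (edgeR adjusted p = 0.281), and Il4ra, which encodes the interleukin 4 receptor chain, was at 0.25 ± 0.11 in WT (edgeR adjusted p = 0.669). Chil4 was at 0 reads in every ganglion group, and Il13 was at 0 reads in KO IMQ, WT IMQ and WT vehicle ganglia. Of 22 other resident macrophage genes, 18 could be tested, and 4 rose in KO ganglia and 2 in WT ganglia with none lower (median log2 0.62 and 0.65). Stab1, a scavenger receptor gene, rose by 1.45 ± 0.15 in KO (edgeR adjusted p = 0.00136) and by 1.47 ± 0.15 in WT (edgeR adjusted p = 0.000942), and kept its call without any 1 library. In KO ganglia Siglec1, a sialic acid receptor gene, rose by 1.87 ± 0.35, the lipid receptor gene Cd36 by 0.99 ± 0.16 and the transglutaminase gene F13a1 by 0.86 ± 0.16. Of 5 fits with 1 library left out, Siglec1 kept its call in 1, and Cd36 and F13a1 in 2 each. The log2 difference was 1.88 for Siglec1 without KO IMQ 1, and 0.838 for Cd36 and 0.828 for F13a1 without KO IMQ 2.

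The genes that surround Il10 and Arg1 were mostly level. Of 12 arginine and IL-10 pathway genes, 1 rose in each genotype. Il10ra, the receptor chain that binds interleukin 10, averaged 12.3 CPM in KO IMQ against 5.91 CPM in KO vehicle ganglia, and 11.6 CPM in WT IMQ against 5.18 CPM in WT vehicle ganglia. It rose by 1.06 ± 0.13 in KO (edgeR adjusted p = 0.00383) and by 1.16 ± 0.13 in WT (0.00169), and kept its call without any 1 library. Of 12 classical activation genes, 7 could be tested and none passed. The interleukin 1 gene Il1b was at 2.00 ± 0.51 in KO (edgeR adjusted p = 0.172), and the median of the 7 was 0.68 in KO and 0.81 in WT. Of 10 monocyte genes, 9 could be tested, and Spn (1.94 ± 0.30) and the chemokine receptor gene Ccr2 (0.99 ± 0.17) rose in WT and none in KO ganglia. Ccr2 lost its call whichever WT library was left out, and Spn kept its call in 2 of 5 such fits. The log2 difference in WT was 1.75 for Spn without WT IMQ 1 and 0.914 for Ccr2 without WT IMQ 2.

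Markers of other cells that carry the members were set beside them. Of 12 type 2 dendritic cell genes, which mark another carrier of Mgl2, 8 could be tested and none passed. Cd209a, a lectin gene of such cells, averaged 0.234 CPM in KO IMQ against 0.943 CPM in KO vehicle and 0.277 CPM in WT IMQ against 0.801 CPM in WT vehicle ganglia, at −1.98 ± 0.59 in KO (edgeR adjusted p = 0.29) and −1.53 ± 0.57 in WT (0.484). Itgax, which encodes CD11c, was at 1.17 ± 0.40 in KO (edgeR adjusted p = 0.429) and 1.95 ± 0.41 in WT (0.0586). Flt3, a growth factor receptor gene of dendritic cells, averaged 27.1 CPM in KO IMQ against 24.3 CPM in KO vehicle, and 24.1 CPM in WT IMQ against 24.6 CPM in WT vehicle ganglia. The summed list was at 48.7 to 49.8 CPM in KO IMQ against 40.9 to 51 CPM in KO vehicle, and 48.3 to 49.5 CPM in WT IMQ against 45.1 to 47.9 CPM in WT vehicle ganglia. Most of this sum came from Flt3 and Zbtb46, the latter with group means of 12.6 to 15.2 CPM in ganglia. Zbtb46 had means of 28.3 to 32.5 CPM in the cultures, so the sum need not follow dendritic cells. The part of dendritic cells in the level of Mgl2 was not tested.

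Adipocyte genes mark another carrier of Retnla. Of 9 genes, 8 could be tested, with a median of 1.48 in KO and 1.67 in WT. Cfd rose in WT by 2.82 ± 0.47 (edgeR adjusted p = 0.0182), but kept its call in only 2 of 5 fits with 1 library left out. Without WT IMQ 2 its log2 difference was 2.6. The summed list was at 29.4 to 44.3 CPM in KO IMQ against 12.1 to 21.8 CPM in KO vehicle, and 36 to 51.9 CPM in WT IMQ against 21 to 37.6 CPM in WT vehicle ganglia, and the part of adipose tissue in the level of Retnla was not tested. Of 8 neutrophil genes none passed, with medians of −0.85 in KO and 0.67 in WT, and their sum reached 327 CPM in 1 KO vehicle library. Of 7 lymphocyte genes that could be tested, Cd8a (2.71 ± 0.43) and Jchain (2.62 ± 0.52) rose in WT. Jchain lost its call whichever library was left out, and Cd8a in all but 1 of 5 such fits. Without WT IMQ 2 the log2 difference was 2.55 for Cd8a and 1.91 for Jchain. Of 8 satellite glia and Schwann cell genes Drp2 fell in WT by 1.51 (SE 0.17, edgeR adjusted p = 0.00163), and none passed in KO. Their summed level was 4258 to 4787 CPM in KO IMQ against 5167 to 6231 CPM in KO vehicle ganglia. In WT it was 4528 to 6114 CPM with IMQ against 7540 to 11170 CPM with vehicle. The median log2 difference of the 8 was −0.15 in KO and −0.26 in WT. The cause of the lower sums was not tested. None of the 8 mast cell and eosinophil, 8 sensory neuron or 8 fibroblast and endothelium genes passed in either genotype.

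Whether Postn genotype changed the members was tested in comparisons of KO with WT. The members were not chosen on these comparisons, but the same ganglion libraries were used in the choice. The tests are therefore not fully independent of it. No member passed in any of these comparisons. Of 9 members tested, 0 were called between KO and WT IMQ ganglia (background 0.00581%, 1 of 17197 genes), 0 between KO and WT vehicle ganglia (0.0116%) and 0 for the difference of the IMQ responses, KO minus WT (0.0%). DESeq2 called no member either, and 2, 29 and 5 of all genes. The unadjusted edgeR p was under 0.05 for 1, 0 and 1 members, against 318, 530 and 364 of all genes.

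Mgl2 was at 1.11 ± 0.481 CPM in KO IMQ and 0.668 ± 0.298 CPM in WT IMQ ganglia (SD, n = 2 each), a log2 difference of 0.75 with a 95% interval of −0.15 to 1.65. With vehicle it was at 10.02 ± 1.52 CPM in KO and 9.71 ± 0.907 CPM in WT ganglia (SD, n = 3 each), a difference of 0.05 with an interval of −0.42 to 0.51. The IMQ responses differed by 0.71 (−0.30 to 1.72). Retnla differed by −0.43 (−1.62 to 0.77) between KO and WT with IMQ, by 0.27 (−0.38 to 0.93) with vehicle and by −0.70 (−2.06 to 0.67) in its IMQ response. These intervals leave room for a difference of more than 2-fold with IMQ for both genes, and the sign for Retnla with IMQ changed to 0.32 without WT IMQ 1.

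Cd163 was the member with the smallest p for genotype. It stood at 26.1 and 23.4 CPM in KO IMQ, against 16.5 and 12.8 CPM in WT IMQ ganglia, so the groups did not overlap. The log2 difference was 0.76 ± 0.17 (95% interval 0.39 to 1.13), with an edgeR adjusted p of 0.9974 over 17197 genes. With vehicle the difference was −0.12 ± 0.14 (−0.42 to 0.19), and the IMQ response was larger in KO by 0.87 ± 0.21 (0.39 to 1.36, edgeR adjusted p = 0.9986). Over the alternatives the adjusted p ran from 0.503 to 1 with IMQ and from 0.677 to 1 for the response. Left-out libraries moved the difference with IMQ between 0.59 and 0.96, and the lowest was without WT IMQ 2. Lyve1 with vehicle was at −0.34 ± 0.18 (edgeR adjusted p = 0.9999) and was lower in KO in all 3 same-numbered pairs. Il10 with IMQ was at 29 reads in KO against 13 in WT, a ratio of 2.4 (95% exact interval 1.21 to 5.03, counting error only, edgeR adjusted p = 0.9974). Because Il10 met the filter on low counts only through the KO IMQ libraries, this ratio is no support for a genotype difference.

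**Figure D4:**
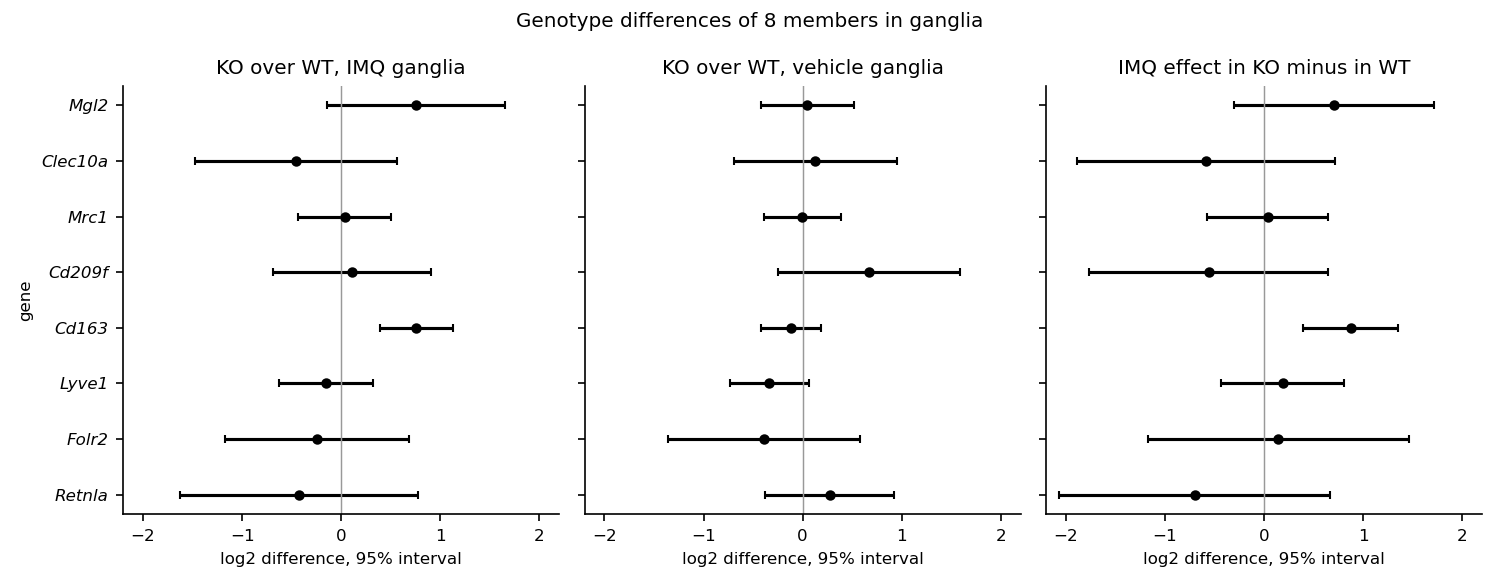
Points are log2 differences of 8 members and bars are 95% intervals from the edgeR fit, for KO over WT with IMQ (left), KO over WT with vehicle (middle) and the IMQ effect in KO minus that in WT (right). Intervals cross 0 for all members in the middle panel and for all but Cd163 in the outer panels, before adjustment over all genes.

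The cultures asked whether rPOSTN changes DRG cells directly. Macrophage genes were present in the cultures, with the 22 identity genes summing to 204 to 294 CPM in KO and 309 to 356 CPM in WT libraries and none at 0 in a whole group. Much of this sum came from Lyz2 (group means of 86.6 to 123 CPM) and Cd68 (39.5 to 54.5 CPM). Adgre1 had means of 3.18 to 6.89 CPM, Itgam 0.403 to 0.571 CPM and Cx3cr1 0.174 to 0.471 CPM, so the sum need not follow macrophages. Of the 10 members 3 could be tested in each genotype, Mrc1, Cd163 and Lyve1, and 0 were called in KO (background 0.0% of 16756 genes) or WT (0.0% of 16639 genes). The difference of the responses, KO minus WT, could be tested for 5 members and called 0 (0.0% of 17519 genes). DESeq2 called no gene in these comparisons, and 155, 661 and 342 genes had an unadjusted p under 0.05. With the replicate block, a term for the library number, 8 genes were called with rPOSTN in WT cultures, and 0 members.

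Cd163 had 1.26, 0.111 and 1.77 CPM in KO rPOSTN, against 0.568, 0.7 and 1.76 CPM in KO control cultures. In WT cultures it had 1.69, 1.57 and 1.47 CPM with rPOSTN, against 1.03, 0.818 and 0.989 CPM in control. The WT groups did not overlap and the KO groups did. The log2 difference was 0.06 ± 0.77 in KO (edgeR adjusted p = 0.9996) and 0.73 ± 0.29 in WT (95% interval 0.12 to 1.34, edgeR adjusted p = 0.999). Over the alternatives the edgeR adjusted p in WT ran from 0.63 to 1. KO rPOSTN 2 held only 2 reads of Cd163 and was also the lowest for Mrc1, and without it the KO difference was 0.58. Without KO control 3 it was 0.72 and without KO rPOSTN 3 it was −0.55.

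Mrc1 had 4.86, 1.67 and 5.05 CPM in KO rPOSTN, against 5.48, 4.96 and 3.83 CPM in KO control cultures, a log2 difference of −0.30 ± 0.38. In WT cultures it had 4.26, 5.86 and 5.59 CPM with rPOSTN, against 6.37, 6.33 and 4.86 CPM in control, a difference of −0.14 ± 0.16. Lyve1 differed by 0.12 ± 0.24 in KO and 0.10 ± 0.16 in WT cultures. The groups of both genes overlapped, and their 95% intervals ran from −1.14 to 0.55 for Mrc1 in KO, −0.48 to 0.20 for Mrc1 in WT, −0.40 to 0.64 for Lyve1 in KO and −0.23 to 0.43 for Lyve1 in WT.

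Il10 was too low for the main test in cultures. It had 5, 2 and 3 reads in KO rPOSTN against 2, 2 and 3 in KO control cultures, and 8, 2 and 5 reads in WT rPOSTN against 0, 0 and 1 in WT control cultures. The WT ratio was 14.3 (95% exact interval 2.2 to 602, counting error only), and without the filter on low counts the edgeR adjusted p was 0.8452. The KO ratio was 1.47 (0.507 to 4.56). Mgl2 had 23 reads over KO rPOSTN against 25 over KO control cultures, and 17 over WT rPOSTN against 22 over WT control cultures, with overlapping groups in both. Arg1 had 9 reads over KO rPOSTN against 16 over KO control cultures, and 29 over WT rPOSTN against 24 over WT control cultures, again with overlap.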

How the data were processed

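RNA was sequenced from 22 samples. Per the labels' protocols, libraries were poly-A selected, stranded by dUTP and read as pairs of 150 bases. The authors deposited raw read counts per Ensembl gene in 3 tables, with no normalization: ganglia, WT cultures and KO cultures. Tools and build in the submitters' processing notes are GRCm39, TopHat2, HISAT2 2.1.0 and Bowtie2 2.2.3, with no roles. For the counting tool, its strand setting and the annotation release, the answer is not given in the sources used here. Symbols and exon lengths came from GENCODE M21, a release on another build (GRCm38).

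Counts were scaled to CPM with TMM within each table. The quasi-likelihood test of edgeR 4.0.16, robust and two-sided, was run on genes that passed filterByExpr (minimum count 10), with Benjamini-Hochberg adjustment over all genes of a comparison, in R 4.3.3. Python 3.11.15 was used for summaries. The 4 ganglion groups shared 1 fit, WT and KO cultures were fitted apart, and cultures of different genotype were compared only in their responses, over all 12 libraries, since each genotype is its own table. SE is the log2 fold change over the square root of F. Count ratios have exact 95% intervals. A fit was checked on simulated counts. Alternatives were DESeq2 1.42.0, RLE factors, no filter, the replicate block, the compared groups alone and each library left out.

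The members and the gene lists were chosen with earlier results of these data known. Named were the 10 members, Postn, Adgre1, up to 6 called genes per list (or up to 2 with the smallest p) and the 5 genes most like Mgl2 and Retnla. Xist, Hbb-bs, Itgam, Flt3, Zbtb46, Lyz2, Cd68, Cx3cr1 and genes at 0 reads were named after their values were seen. One called gene of the resident macrophage list is not reported here. Same-numbered samples, over genes whose mean log2 CPM exceeded 3, correlated at 0.87, 0.83 and 0.16 between KO and WT vehicle ganglia, 0.39, 0.71 and 0.63 in KO cultures and 0.41, 0.40 and 0.68 in WT cultures. These numbers were taken as pairs, from the data alone, but the main fits held no term for them. Only the replicate block did, so the main p-values leave this pairing out. IMQ and vehicle ganglia correlated at 0.75 and 0.76 in KO and at 0.24 and 0.22 in WT. IMQ groups have only 2 libraries and were not taken as paired.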

Additional observations from a re-analysis of the deposited data

Results flagged for a closer look

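Arg1 went opposite ways with IMQ in the genotypes, although on 5 to 10 reads per library. It had 0.522 and 0.474 CPM in KO IMQ, against 0.425, 0.271 and 0.316 CPM in KO vehicle ganglia, and every IMQ library was higher. In WT ganglia it had 0.356 and 0.293 CPM with IMQ, against 0.532, 0.367 and 0.501 CPM with vehicle, and every IMQ library was lower. The difference of the IMQ effects on the mean level, KO minus WT, was 0.303 CPM. Arg1 was too low for the main test, which therefore did not test this difference, and the fit without the filter on low counts gave a log2 difference of 1.08 ± 0.76 (edgeR adjusted p = 1).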

How the results depend on the processing

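With IMQ the main test called 5 members in KO (190 of all genes) and 3 in WT ganglia (224). DESeq2 (369 of all genes) and the fit without a filter (309) called 5 members in WT, adding Mrc1 and Folr2. Without 1 WT vehicle library the count was between 1 and 2, with 113 to 160 of all genes. In KO ganglia the compared groups alone called 1 member and 58 of all genes. Without 1 KO vehicle library the count was between 2 and 5, with 110 to 165 of all genes. For the 6 other comparisons all alternatives called 0 members. The most called of all genes there was 29, by DESeq2 between KO and WT vehicle ganglia. The replicate block called 6 members with IMQ in KO (239 of all genes), adding Folr2. In WT it called 3 (280 of all genes), with Mrc1 in place of Cd209f. Elsewhere it called 0 members, and at most 8 of all genes. It turned the sign of Cd163 with rPOSTN in KO cultures to −0.11 and of Il10 between KO and WT vehicle ganglia to 0.017, and gave −0.33 for Lyve1 there, where the main value was −0.34. Of 36 log2 differences of members outside the IMQ contrast, none past the test, a left-out library turned the sign of 21. In the interaction with IMQ these ranged from −1.15 to 0.043 for Retnla, −0.13 to 0.16 for Mrc1, −0.0089 to 0.32 for Lyve1, −0.22 to 0.49 for Folr2 and −0.58 to 3.12 for Il10. Between KO and WT with IMQ they ranged from −0.88 to 0.32 for Retnla, −1.27 to 0.055 for Clec10a, −0.053 to 0.12 for Mrc1, −0.54 to 0.10 for Folr2 and −0.011 to 0.22 for Cd209f. Between KO and WT with vehicle they ranged from −0.092 to 0.12 for Mgl2, −0.036 to 0.40 for Clec10a, −0.13 to 0.16 for Mrc1 and −1.87 to 1.82 for Il10. With rPOSTN they ranged from −0.54 to 0.062 for Mrc1, −0.55 to 0.72 for Cd163 and −0.070 to 0.22 for Lyve1 in KO cultures, and from −0.0045 to 0.18 for Lyve1 in WT cultures. In the interaction with rPOSTN they ranged from −0.39 to 0.22 for Mrc1, −1.28 to 0.0014 for Cd163 and −0.17 to 0.12 for Lyve1. The cause was not tested. Of group levels, 380 alternative values moved by no more than the replicate SD. For a left-out library this was fixed in advance, since dropping 1 of 2 or 3 libraries cannot move a mean further. Those values therefore say nothing about stability. Depth limits Il10, Arg1, Cd209f, Folr2 and Clec10a, which had under 60 reads per library. It also limits Mgl2 (9 to 25 reads) and Retnla (6 to 16 reads) in IMQ ganglia. Culture levels of Retnla, Clec10a and Cd209f rest on at most 5 reads per library.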
